A study of Mus musculus with 20 samples.

Results

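The 5 genes Inmt, Slc7a13, Hsd3b2, Gm11128 and 0610005C13Rik are transcripts of the mouse kidney cortex that were chosen, from earlier results on these libraries, for very large falls after acute kidney injury and for an order of injuries that differs from gene to gene. All 5 were found by symbol among the 6025 genes of the deposited table, and all 5 passed the minimum mean of 1 CPM (read counts scaled to a common effective library size) that left 5672 genes for testing. The genes were thus chosen by the same CPM values after injury that are given below, which stand as a description with no test. In brief, Inmt and Slc7a13 were lowest after cisplatin and highest after rhabdomyolysis, whereas Hsd3b2, Gm11128 and 0610005C13Rik had their lowest means after rhabdomyolysis and their highest after ischemia. For Hsd3b2 the rhabdomyolysis and cisplatin means differed by less than 1 SD, and their order turned without rhabdomyolysis 4, cisplatin 1 or cisplatin 4. For Slc7a13 the share of the control mean left after IRI (ischemia), 5.78% ± 2.12 (SD), lay within that SD of both other injuries. For Gm11128 the share after cisplatin, 3.73% ± 3.26, lay within that SD of the 1.62% after rhabdomyolysis.

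Poly-A RNA from renal cortex of 20 wild-type C57BL/6 mice, written C57BL/6J in the protocol and 8 weeks old, was sequenced, with 1 library per mouse and the sex of the mice not stated. The groups were controls (n = 8, mock in the sample labels, mock and vehicle in the series design), IRI, that is ischemia-reperfusion injury, at 24 h (n = 4), rhabdomyolysis, a muscle breakdown that injures the kidney, at 24 h (n = 4) and cisplatin, a platinum drug toxic to the proximal tubule, at 72 h (n = 4). No group carried a genetic change. Controls 1 to 4 share a range of library identifiers with the IRI libraries, and controls 5 to 8 share one with the rhabdomyolysis and cisplatin libraries, so each injury was set against its own 4 controls, and rhabdomyolysis and cisplatin share theirs. The labels do not say which controls were mock and which vehicle, nor how each injury was induced, and cisplatin was sampled later than the other two, so agent and time cannot be told apart there.

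The proximal tubule reabsorbs most of the filtered solutes and is divided into an early convoluted portion, segments S1 and S2, and a late straight portion, S3. Inmt encodes indolethylamine N-methyltransferase, which moves a methyl group from S-adenosylmethionine to tryptamine and other small amines. Slc7a13 encodes a light-chain amino acid transporter of the S3 brush border that carries acidic amino acids and cystine and pairs with the heavy chain encoded by Slc3a1. Hsd3b2 belongs to the 3-beta-hydroxysteroid dehydrogenases, which convert delta-5 steroids into their delta-4 ketone forms. Gm11128 is listed by RefSeq as an older symbol of Nat8f6, a gene of the N-acetyltransferase 8 family, whose founder Nat8 acetylates cysteine conjugates on the way to mercapturic acids. 0610005C13Rik is a noncoding transcript, typed as antisense by GENCODE.

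The genes lie at 5 places in GRCm38. By GENCODE M21, Inmt is at chr6:55170626-55175043 (minus strand), Slc7a13 at chr4:19818725-19842218 (plus strand), Hsd3b2 at chr3:98709255-98724543 (minus strand), Gm11128 at chr6:85808024-85820954 (minus strand) and 0610005C13Rik at chr7:45567794-45575327 (minus strand). Of the exonic bases of 0610005C13Rik, 622 (17.4%) overlap exons of Bcat2 on the opposite strand. Of those of Gm11128, 135 (7.95%) overlap exons of its relative Nat8f5 on the same strand, and of those of Hsd3b2, 99 (2.68%) overlap exons of Zfp697 on the opposite strand. The libraries were made with a stranded kit, but whether the counting used strand was not given in the sources used here, so reads from these overlaps cannot be assigned to one gene with certainty, and those shared by Gm11128 and Nat8f5 could not be told apart by strand.

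Hsd3b2 and Gm11128 have near-identical copies, and their sequences are shown because they set how well reads can be told apart. The lines below give the first 60 coding bases of Hsd3b2 and its measured relatives, on the GRCm38 minus strand, with capitals where a relative differs from Hsd3b2.
Hsd3b2 (chr3:98716501-98716560): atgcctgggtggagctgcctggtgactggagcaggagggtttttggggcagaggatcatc
Hsd3b3 (chr3:98753396-98753455): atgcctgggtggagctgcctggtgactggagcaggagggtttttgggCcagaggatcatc
Hsd3b4 (chr3:98509908-98509967): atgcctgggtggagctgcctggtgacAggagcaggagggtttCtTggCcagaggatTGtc
Over the whole coding sequence of 1122 bases Hsd3b3 is identical to Hsd3b2 at 95.1% of positions and Hsd3b4 at 81.1%. The next lines give the same stretch for Gm11128 (Nat8f6) and its relatives, also on the minus strand, with capitals where a relative differs from Gm11128.
Gm11128 (chr6:85809106-85809165): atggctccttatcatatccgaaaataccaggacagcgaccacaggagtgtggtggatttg
Nat8f3 (chr6:85761719-85761778): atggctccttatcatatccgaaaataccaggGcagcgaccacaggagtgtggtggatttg
Nat8f7 (chr6:85707797-85707856): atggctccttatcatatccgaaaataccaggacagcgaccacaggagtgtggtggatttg
Nat8 (chr6:85831090-85831149): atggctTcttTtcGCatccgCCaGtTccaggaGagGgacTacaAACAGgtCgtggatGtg
Nat8f7, which the deposited table lists as Gm4477, does not differ from Gm11128 within this stretch. Coding identity to Gm11128 is 99.3% for Nat8f3, 99.1% for Nat8f7 and 69.6% for Nat8. Of all 150-base windows of the longest Gm11128 transcript, the length of 1 read, 36.1% also occur in a transcript of Nat8f3 or Nat8f7. The share is 2.23% for Hsd3b2, all with Hsd3b3, and 0% for Inmt, Slc7a13 and 0610005C13Rik. Values of Gm11128 are therefore uncertain as those of a single gene, and those of Hsd3b2 to a lesser degree.

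The sequences upstream of Inmt and Hsd3b2 are shown as examples of the 2 orders of injuries. They come from the RefSeq promoter table for GRCm38.p6, read 5′ to 3′ on the minus strand, without the bases that lie in an annotated first exon, and capitals mark matches to TATAAA.
Inmt (chr6:55175044-55175240): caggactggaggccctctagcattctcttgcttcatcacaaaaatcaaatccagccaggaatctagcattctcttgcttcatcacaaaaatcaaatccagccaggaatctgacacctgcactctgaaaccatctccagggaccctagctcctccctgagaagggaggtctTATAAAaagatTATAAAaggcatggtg
Hsd3b2 (chr3:98724544-98724793): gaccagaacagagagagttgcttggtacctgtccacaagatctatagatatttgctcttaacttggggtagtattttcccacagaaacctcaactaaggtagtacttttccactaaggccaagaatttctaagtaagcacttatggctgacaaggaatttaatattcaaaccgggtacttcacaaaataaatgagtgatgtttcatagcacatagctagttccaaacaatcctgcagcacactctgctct
The Inmt sequence holds 2 matches to TATAAA, which begin 80 and 69 bases before the RefSeq start, and a stretch of 46 bases that occurs as 2 adjacent copies. The Hsd3b2 sequence holds no match to TATAAA on the given strand. Neither sequence holds a match to GTTAAT (a part of an HNF1 site), CAAAGTCCA (an HNF4 motif) or CCAAT on either strand. Among 32851 promoter windows of 250 bases, TATAAA occurs in 7.59%, GTTAAT in 6.43%, CAAAGTCCA in 0.384% and CCAAT in 33.8%. A match is a description of letters and says nothing of binding, and these letters were not searched beyond the windows. Promoter entries were matched for 4 of the 5 genes, Slc7a13 being the one without.

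The libraries held between 3476635 and 5396140 reads in the table's genes, which were 42.1% to 70.6% of each library's effective size. Proximal tubule markers were abundant in the controls, where 28 genes of the S1 and S2 list summed to between 45593 and 75191 CPM and 28 genes of the S3 list to between 15282 and 27033 CPM. Of the 5672 genes tested, limma called 5658 in at least 1 injury, so the shares of genes called are high throughout this table. After injury, markers of other cell types moved as well, as given with the segment lists below.

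Before injury, the 5 genes differed in level. Per kilobase of exon, the mean over 8 controls was 650 CPM ± 110 (SD) for Inmt, 367 ± 78.4 for Slc7a13, 124 ± 31.8 for Gm11128, 51.5 ± 5.94 for 0610005C13Rik and 47.8 ± 7.57 for Hsd3b2. 0610005C13Rik and Hsd3b2 lay within 1 SD of each other, and the other neighbours in this order lay farther apart than their SDs. Control 4 was the lowest of the 8 controls for Inmt, Slc7a13, Gm11128 and 0610005C13Rik, and control 1 for Hsd3b2. Between controls 1 to 4 and controls 5 to 8, a contrast that did not choose the genes, none of the 5 was called, with adjusted p from 0.911 to 1 in limma over 5672 genes. That does not show that the ranges were equal, as for Gm11128 the log2 difference was 0.19 with a standard error of 0.45. The two-sided exact permutation test of 4 against 4 gave p from 0.4 to 0.857, where the smallest p it can give is 0.0286. In that contrast limma called 0% of the genes tested, with 454 at an unadjusted p under 0.05, and edgeR on the recovered reads also called 0, with 433.

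**Figure D1:**
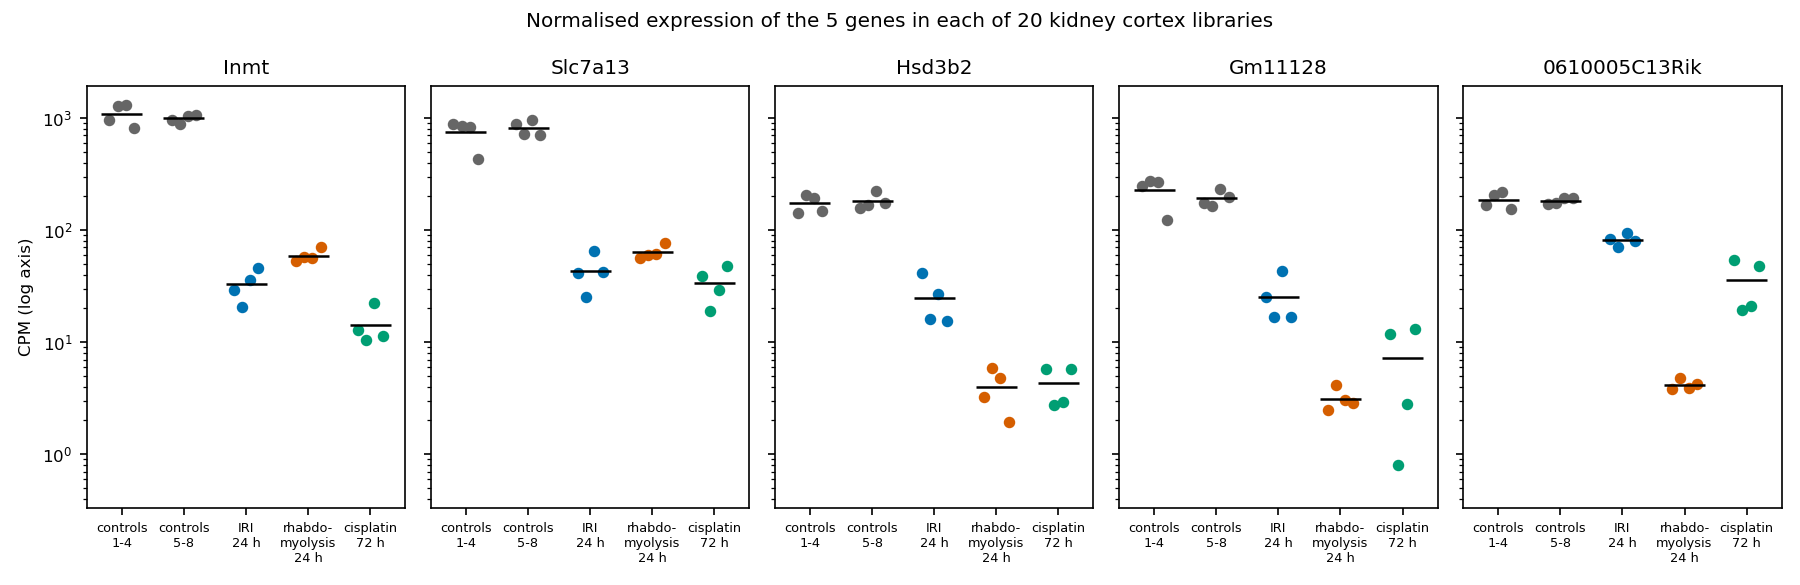
Normalised expression (CPM, log axis) of each gene in each of the 20 libraries, by group. Points are libraries, horizontal bars are group means, and the panels share 1 axis. For every gene the 12 injured libraries lie below the 8 controls. The lowest mean is that of cisplatin for Inmt and Slc7a13 and that of rhabdomyolysis for the other 3 genes, narrowly so for Hsd3b2. The rhabdomyolysis and cisplatin ranges overlap for Hsd3b2 and Gm11128, and the IRI and cisplatin ranges overlap for Inmt and Slc7a13.

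Inmt, the methyltransferase, was the most abundant of the 5 genes per kilobase in control cortex and had a few percent left after each injury. Its 8 controls ran from 807 to 1301 CPM, with a median of 1006. The IRI libraries held 29.2, 20.8, 35.8 and 45.9 CPM, the rhabdomyolysis libraries 53.1, 56.9, 56.7 and 69.9, and the cisplatin libraries 12.7, 10.4, 22.2 and 11.2. The rhabdomyolysis values lay above all those of the other injuries, while the ranges of IRI and cisplatin overlapped, with cisplatin 3 reaching just above IRI 2. As a share of the matched control mean, 3.03% ± 0.974 (SD, n = 4) was left after IRI, 5.97% ± 0.744 after rhabdomyolysis and 1.43% ± 0.552 after cisplatin. On the log2(CPM + 1) scale the differences from the matched controls were -5.03, -4.05 and -6.09, each with a standard error of 0.21. In cisplatin these values rest on 103 to 199 reads per library.

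Slc7a13, the S3 amino acid transporter, kept the same order as Inmt with smaller gaps between injuries. The controls ran from 435 to 968 CPM, with a median of 844, and control 4 at 435 lay well below the next, control 8 at 706. The IRI libraries held 41.7, 25.4, 64.4 and 42.7 CPM, the rhabdomyolysis libraries 56.7, 60.3, 60.8 and 76.8, and the cisplatin libraries 38.6, 18.9, 29.3 and 47.4. Only rhabdomyolysis and cisplatin did not overlap, and IRI spanned parts of both ranges. The share left was 5.78% ± 2.12 after IRI, 7.77% ± 1.09 after rhabdomyolysis and 4.10% ± 1.5 after cisplatin. The log2 differences were -4.10, -3.66 and -4.63, each with a standard error of 0.26.

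Hsd3b2, the steroid dehydrogenase, was close to gone in 2 of the 3 injuries. The controls ran from 143 to 222 CPM, with a median of 171. The IRI libraries held 41.4, 16.0, 27.1 and 15.4 CPM, the rhabdomyolysis libraries 3.21, 5.91, 4.75 and 1.93, and the cisplatin libraries 5.72, 2.73, 2.90 and 5.81. Every IRI library lay above every rhabdomyolysis and cisplatin library, and the latter ranges overlapped. The share left was 14.5% ± 7.06 after IRI, 2.19% ± 0.967 after rhabdomyolysis and 2.38% ± 0.946 after cisplatin, with log2 differences of -2.84, -5.25 and -5.14 (standard error 0.28). The rhabdomyolysis values rest on 17 to 60 reads per library. Without rhabdomyolysis 4 the share after rhabdomyolysis was 2.57%, above that after cisplatin, and without cisplatin 1 or 4 the share after cisplatin was 2.12% or 2.1%, below that after rhabdomyolysis.

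Gm11128, the N-acetyltransferase 8 relative, had its means in the same order as Hsd3b2. The controls ran from 122 to 274 CPM, with a median of 214. The IRI libraries held 25.2, 16.6, 43.3 and 16.9 CPM, the rhabdomyolysis libraries 2.46, 4.14, 3.04 and 2.84, and the cisplatin libraries 11.9, 0.807, 2.79 and 13.2. The cisplatin libraries were spread widely, with the highest 16.3 times the lowest, and the lowest, cisplatin 2, rests on 8 reads. The share left was 11.2% ± 5.48 after IRI, 1.62% ± 0.375 after rhabdomyolysis and 3.73% ± 3.26 after cisplatin, with log2 differences of -3.15, -5.56 and -5.01 (standard error 0.45). Every IRI library lay above every rhabdomyolysis and cisplatin library, and the latter ranges overlapped.

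0610005C13Rik, the noncoding transcript, had the widest spread between injuries of the 5 genes. The controls ran from 155 to 216 CPM, with a median of 183. The IRI libraries held 83.0, 70.3, 93.6 and 79.5 CPM, the rhabdomyolysis libraries 3.78, 4.83, 3.9 and 4.2, and the cisplatin libraries 53.9, 19.4, 21.0 and 48.0. No range overlapped another, and the rhabdomyolysis libraries differed among themselves by at most 1.28 times. The share left was 43.8% ± 5.16 after IRI, 2.29% ± 0.256 after rhabdomyolysis and 19.5% ± 9.83 after cisplatin, with log2 differences of -1.17, -5.15 and -2.47 (standard error 0.23). The mean after IRI was thus 19.5 times that after rhabdomyolysis.

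**Figure D2:**
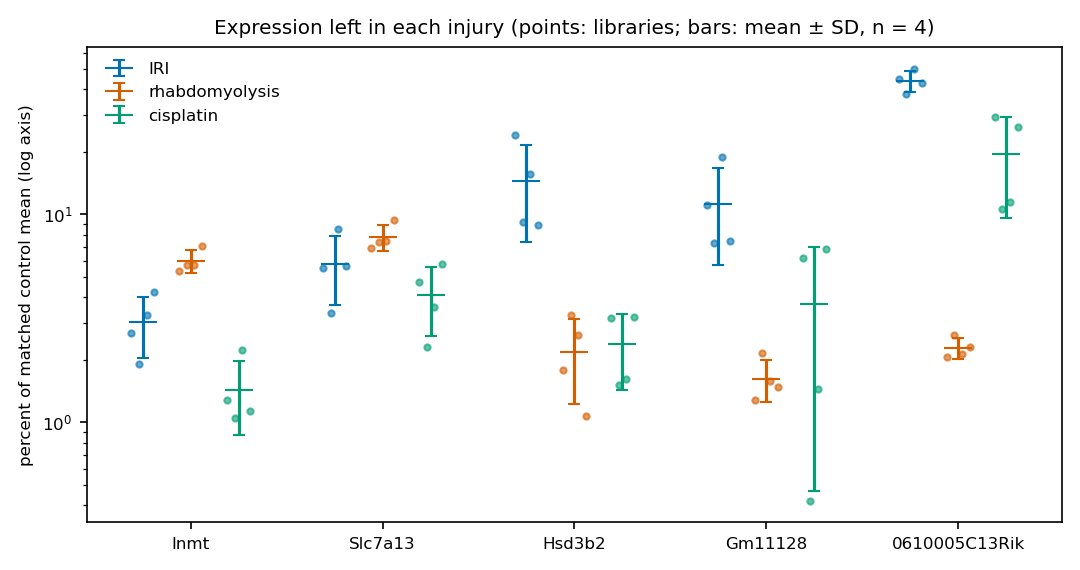
Percent of the matched control mean left (log axis) for each gene after each injury. Points are the 4 libraries of an injury, and horizontal marks with bars are mean ± SD. 0610005C13Rik ranges from 2.29% after rhabdomyolysis to 43.8% after IRI, and Slc7a13 only from 4.10% to 7.77%.

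Counted over the genes, all 4 injured libraries lay below all 8 controls for 5 of 5 after IRI, after rhabdomyolysis and after cisplatin. Over all 5672 genes tested the same held for 33.8% after IRI, 42.7% after rhabdomyolysis and 38% after cisplatin, and since the falls chose the 5 genes nothing is read from that difference. The ranges of 2 injuries lay apart for 4 of 5 genes between IRI and rhabdomyolysis (60.1% of all genes), for 3 of 5 between IRI and cisplatin (42.8%) and for 3 of 5 between rhabdomyolysis and cisplatin (47.8%). Among the falls of all genes on the log2 scale, Gm11128 ranked 1, Hsd3b2 ranked 3 and 0610005C13Rik ranked 5 of 5672 after rhabdomyolysis, where Inmt ranked 32 and Slc7a13 ranked 59. In IRI Inmt ranked 3, Slc7a13 11, Gm11128 54, Hsd3b2 72 and 0610005C13Rik 625. In cisplatin Inmt ranked 5, Hsd3b2 10, Gm11128 11, Slc7a13 14 and 0610005C13Rik 155. In a bulk sample, fewer cells that express a gene and less of its RNA per cell cannot be told apart.

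Read ratios inside 1 library do not depend on how libraries were scaled. There were 5.58 reads of Inmt for each read of 0610005C13Rik in the median control, with a range of 5.15 to 6.21. The ratio was 0.368 (0.295 to 0.577) after IRI, 14.3 (11.8 to 16.6) after rhabdomyolysis and 0.386 (0.234 to 1.06) after cisplatin. It was thus below every control in both IRI and cisplatin and above every control after rhabdomyolysis. Inmt and Slc7a13 share an order, yet the reads of Inmt per read of Slc7a13 had a median of 1.38 in controls (1.08 to 1.86), 0.759 after IRI (0.556 to 1.08), 0.935 after rhabdomyolysis (0.911 to 0.944) and 0.440 after cisplatin (0.237 to 0.760). Every injured library lay below every control, narrowly so for the highest IRI library, and the rhabdomyolysis and cisplatin ranges lay apart. For Hsd3b2 against Gm11128, whose means share an order, the medians were 0.887 in controls, 0.936 after IRI, 1.37 after rhabdomyolysis and 0.760 after cisplatin, and the 4 ranges overlapped.

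**Figure D3:**
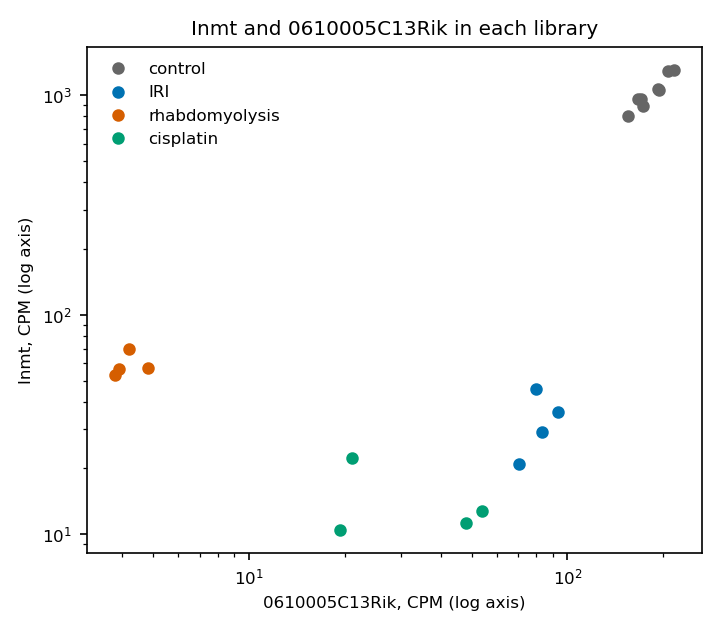
Inmt against 0610005C13Rik in each of the 20 libraries, both in CPM on log axes, coloured by group. Rhabdomyolysis libraries lie low on the 0610005C13Rik axis at 3.78 to 4.83 CPM, and cisplatin libraries low on the Inmt axis at 10.4 to 22.2 CPM.

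Within the cisplatin group the libraries kept an order. Cisplatin 2 and 3 were the lower pair and cisplatin 1 and 4 the higher pair for Slc7a13, Hsd3b2, Gm11128 and 0610005C13Rik. For Inmt the order was 2, 4, 1, 3, with cisplatin 3 the highest. In IRI, library 2 was the lowest for every gene but Hsd3b2, for which library 4 was. Whether such an order is more than the spread of 4 mice was not tested.

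Around Inmt, 4 enzymes of methyl transfer were measured, chosen with the earlier results known. Tpmt, a methyltransferase for thiopurines, fell in all 3 injuries, to 38.1% ± 3.16 of the control mean after IRI, 12% ± 2.39 after rhabdomyolysis and 43.1% ± 7.56 after cisplatin (limma adjusted p 1.36e-08, 1.53e-14 and 4.54e-08). The order of injuries for Tpmt was therefore not that of Inmt, which was highest after rhabdomyolysis. Ahcy, which hydrolyses the S-adenosylhomocysteine left by methyl transfer, fell to 37.5% ± 3.48, 30.8% ± 1.75 and 45.5% ± 10.3. Mat2a, which makes S-adenosylmethionine, fell less, to 77.4% ± 9.89, 51.0% ± 5.50 and 61.0% ± 4.53, and the fall after IRI (limma adjusted p 0.00753) turned to a log2 difference of 0.048 under quantile normalization. Nnmt, the related nicotinamide methyltransferase, was scarce and rose, from 0.723 CPM ± 0.369 to 1.85 ± 0.222 after IRI, and from 0.682 ± 0.373 to 3.03 ± 2.16 after rhabdomyolysis and 2.25 ± 0.596 after cisplatin (limma adjusted p 0.0164, 0.000462 and 0.00243). The calls for Nnmt after IRI and cisplatin were lost under quantile normalization, with adjusted p 0.0990 and 0.0603, and the call after IRI without control 3, with adjusted p 0.0519. Of the 22 genes tested from a list on methyl transfer and one-carbon metabolism, these 4 among them, 21 fell and Nnmt alone rose in each injury, with median log2 differences of -1.47 after IRI, -2.06 after rhabdomyolysis and -1.21 after cisplatin. Over all genes tested, 40.1% fell and 40.6% rose after IRI with a median of 0.08, 46.5% fell and 48.8% rose after rhabdomyolysis with a median of 0.31, and 44% fell and 47.8% rose after cisplatin with a median of 0.30.

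Around Slc7a13, the heavy chain Slc3a1 lost a smaller share of its level. It held 806 CPM ± 109 (n = 8) in controls and fell to 35.0% ± 1.71 after IRI, 18.8% ± 2.33 after rhabdomyolysis and 51.3% ± 12.9 after cisplatin (limma adjusted p 2.66e-08, 3.53e-12 and 4.88e-06). Reads of Slc7a13 per read of Slc3a1 had a median of 0.981 in controls, 0.152 after IRI, 0.422 after rhabdomyolysis and 0.0819 after cisplatin. Slc7a9, the other light chain that pairs with Slc3a1 and carries cystine in the early tubule, fell to 29.7% ± 2.67, 13.2% ± 3.47 and 28.6% ± 8.46. Slc7a8, a basolateral neutral amino acid exchanger, fell to 55.9% ± 5.34, 24.5% ± 2.48 and 54.0% ± 3.18.

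Slc7a7 and Slc7a12 differed from these. Slc7a7, the basolateral light chain for cationic amino acids, was lowest after cisplatin, as Slc7a13 was, with 22.4% ± 6.36 left after IRI, 18.9% ± 1.74 after rhabdomyolysis and 11.3% ± 3.59 after cisplatin. Its fall after cisplatin was larger than after rhabdomyolysis by 0.77 log2 units (SE 0.19, limma adjusted p 0.00171), in a contrast that called 54.1% of all genes tested. Slc7a12, a scarce S3 relative, fell to 5.15% ± 1.49 after IRI and 7.23% ± 1.79 after rhabdomyolysis (limma adjusted p 5.35e-08 and 1.83e-06), where it rested on 4 to 6 and 2 to 4 reads per library. In cisplatin it held 4.34 CPM ± 1.92 against 4.44 ± 1.23 in the matched controls (limma adjusted p 0.807). Its fall after rhabdomyolysis exceeded that after cisplatin by 1.94 log2 units (SE 0.30, limma adjusted p 1.40e-05). Against the matched controls, the 2 S3 transporters Slc7a13 and Slc7a12 thus had 4.10% and 97.6% left after cisplatin. Slc7a12 held 10.9 CPM ± 6.23 in controls 1 to 4, however, and against all 8 controls it had 56.6% left after cisplatin (limma adjusted p 0.0861), 4.2% after rhabdomyolysis and 7.32% after IRI. Of 11 light chains and partners tested, Slc7a13 apart, 6 fell and 4 rose after IRI, 5 and 4 after rhabdomyolysis, and 4 and 5 after cisplatin, with medians of -0.77, -0.23 and -0.08.

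Among the steroid dehydrogenases, the 2 close relatives of Hsd3b2 fell and the distant one rose. Hsd3b3 held 128 CPM ± 34.5 (n = 8) in controls and fell to 27.3% ± 5.03 after IRI, 3.36% ± 0.504 after rhabdomyolysis and 26.7% ± 11.9 after cisplatin (limma adjusted p 2.21e-06, 4.13e-13 and 4.07e-07). Its fall after rhabdomyolysis exceeded that after cisplatin by 2.61 log2 units (SE 0.26, limma adjusted p 2.41e-08), whereas the cisplatin and rhabdomyolysis ranges of Hsd3b2 overlapped. Reads of Hsd3b2 per read of Hsd3b3 had a median of 1.39 in controls (1.11 to 1.84), 0.549 after IRI, 1.10 after rhabdomyolysis and 0.133 after cisplatin (0.124 to 0.173). Hsd3b4 fell to 19.2% ± 11.1, 7.24% ± 3.99 and 8.03% ± 4.16. Hsd3b7, an enzyme of bile acid synthesis, rose from 15.3 CPM ± 2.71 to 23.8 ± 1.78 after IRI, and from 13.4 ± 2.27 to 30.4 ± 5.97 after rhabdomyolysis and 20.4 ± 2.35 after cisplatin (limma adjusted p 0.000929, 4.16e-07 and 0.00133). Of 17 other genes of steroid metabolism tested, 15 fell and 1 rose after IRI, 16 fell after rhabdomyolysis, and 13 fell and 1 rose after cisplatin, with medians of -1.0, -1.92 and -1.07. Akr1c21, a hydroxysteroid dehydrogenase, fell to 11.4% ± 2.96, 9.05% ± 1.77 and 9.39% ± 5.41. Cyp24a1, the vitamin D hydroxylase, fell to 6.27% ± 5.27 after rhabdomyolysis and was the gene that rose after IRI and after cisplatin, to 646% ± 226 and 262% ± 30.4.

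The N-acetyltransferase 8 genes near Gm11128 were added after their values had been seen. Cml1, the most abundant, fell to 19.4% ± 6.51 after IRI, 7.00% ± 0.655 after rhabdomyolysis and 9.01% ± 4.07 after cisplatin. Gm4477, 99.1% identical to Gm11128 in coding sequence, fell to 15% ± 6.63, 5.51% ± 2.08 and 3.01% ± 2.31, and Cml3, a symbol that RefSeq gives to several current genes, to 24.1% ± 9.40, 13.8% ± 4.33 and 5.47% ± 3.48. Nat8, the enzyme of mercapturic acid synthesis, fell to 22.5% ± 2.37, 8.95% ± 1.99 and 26.4% ± 14.9. Cml5 had 74.8% ± 24.0 left after IRI (limma adjusted p 0.386) and fell to 24.2% ± 13.9 after cisplatin (adjusted p 1.43e-05). In rhabdomyolysis Cml5 had 59.1% ± 15.6 left (adjusted p 0.0479), a call lost in 8 alternatives, 5 of which left out control 5, 7 or 8 or rhabdomyolysis 1 or 3. The mean of Gm11128 was lower after rhabdomyolysis than after cisplatin and that of its close copy Gm4477 was higher, and for Gm11128 the 2 ranges overlapped. When Gm11128, Gm4477 and Cml3, whose identity to Gm11128 was not measured, were summed, 13.1% was left after IRI, 3.35% after rhabdomyolysis and 3.75% after cisplatin. When Hsd3b2 and Hsd3b3 were summed, 20.1%, 2.65% and 12% were left.

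**Figure D4:**
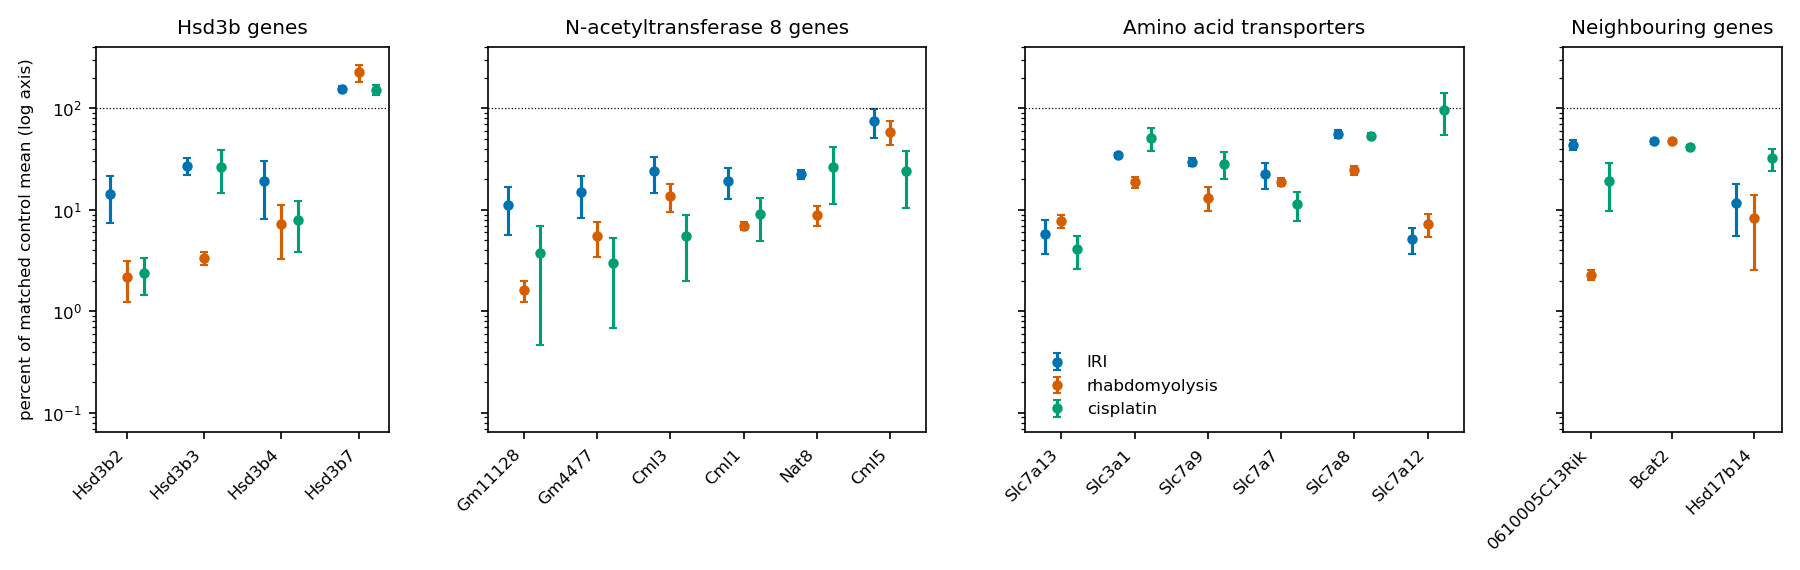
Percent of the matched control mean left (log axis) for Hsd3b2, Gm11128, Slc7a13 and 0610005C13Rik beside relatives, partners and neighbours. Points are means of 4 libraries, bars are SD, and the dotted line is the control level. Hsd3b7 lies above that line in each injury, and Slc7a12 lies at 97.6% after cisplatin (56.6% against all 8 controls) and at 5.15% after IRI.

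The gene that overlaps 0610005C13Rik on the opposite strand lost a similar share after IRI and a smaller one after rhabdomyolysis and cisplatin. Bcat2, the mitochondrial branched-chain aminotransferase, fell to 47.6% ± 2.64 after IRI, 47.8% ± 2.30 after rhabdomyolysis and 41.3% ± 2.60 after cisplatin (limma adjusted p 8.91e-09, 2.48e-09 and 2.49e-10). Its IRI and rhabdomyolysis effects differed by 0.00 log2 units (SE 0.14, limma adjusted p 0.995), which does not show that they were equal. That contrast called 52% of all genes tested, and the one between the IRI and cisplatin effects 30.3%. Reads of 0610005C13Rik per read of Bcat2 had a median of 2.46 in controls (2.19 to 2.74), 2.22 after IRI (1.86 to 2.38), 0.114 after rhabdomyolysis (0.106 to 0.149) and 1.16 after cisplatin (0.686 to 1.65). In rhabdomyolysis Bcat2 held 34.8 CPM ± 1.67 and 0610005C13Rik 4.18 ± 0.469.

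Set beside other proximal tubule genes, the place of the 5 genes varied with the injury. Of 28 genes of the S1 and S2 list, 26 fell after IRI and 28 in both rhabdomyolysis and cisplatin, with medians of -1.80, -2.74 and -2.61, and of 28 genes of the S3 list 26, 27 and 24 fell and 2, 1 and 2 rose, with medians of -2.19, -2.30 and -1.60. No gene of either list had a larger fall than Inmt after IRI or after cisplatin, and none had a larger one than Hsd3b2, Gm11128 or 0610005C13Rik after rhabdomyolysis. After cisplatin none had a larger fall than Hsd3b2 or Gm11128 either. After IRI, 5 of 28 S1 and S2 genes and 9 of 28 S3 genes had larger falls than Hsd3b2, and 3 and 8 had larger ones than Gm11128. For 0610005C13Rik, 19 and 22 genes had larger falls after IRI, and 17 and 8 after cisplatin. For Slc7a13 and Inmt at most 3 genes of a list had larger falls in any injury. Since the falls chose the 5 genes, these places are a description and nothing is read from them. Miox, the myo-inositol oxygenase of the S1 and S2 list, fell to 9.04% ± 1.28, 11.3% ± 2.01 and 3.64% ± 1.12, and Slc34a1, the sodium-phosphate cotransporter, to 15.6% ± 2.65, 18.4% ± 2.38 and 6.34% ± 2.82. Both were lowest after cisplatin and highest after rhabdomyolysis, as Inmt and Slc7a13 were. Acy3, an aminoacylase of the S3 list, fell to 25.8% ± 4.79, 4.66% ± 0.722 and 11.8% ± 2.94, and Slc27a2, an acyl-CoA synthetase, to 41.9% ± 5.04, 10.4% ± 1.54 and 33.7% ± 8.04. Both were lowest after rhabdomyolysis and highest after IRI, the order of the means of Hsd3b2, Gm11128 and 0610005C13Rik. Other abundant genes of the lists had other orders. Kap, of the S1 and S2 list, was in neither order. In the S3 list Cyp4b1, a cytochrome P450, fell to 33.3% ± 6.45, 21.0% ± 4.32 and 16.3% ± 0.870, and Napsa, an aspartic protease, to 17.0% ± 2.1, 25.1% ± 3.10 and 62.2% ± 13.2, with a log2 difference of 0.16 after cisplatin under quantile normalization. Markers of other cells moved with these falls. All 8 loop and distal nephron genes tested fell in each injury, and their sum went from 3018 to 5194 CPM in controls to 632 to 1129 after IRI, 692 to 1038 after rhabdomyolysis and 638 to 739 after cisplatin. Of 9 leukocyte genes 6, 8 and 7 rose and 1 fell, Csf1r, a macrophage receptor, which had 32.9% ± 3.16, 52.9% ± 17.5 and 54.5% ± 5.61 left, and the list had sums of 83.1 to 116 CPM in controls, 104 to 149 after IRI, 117 to 272 after rhabdomyolysis and 192 to 276 after cisplatin. Of 6 endothelial and podocyte genes 5 rose in each injury, with sums of 340 to 770 CPM in controls, 811 to 968 after IRI, 1261 to 1770 after rhabdomyolysis and 883 to 1125 after cisplatin. Of 3 hepatocyte genes 2 fell and 1 rose in each injury, the only skeletal muscle gene tested was Pvalb, which the distal nephron also expresses, and 0 of 8 adrenal cortex genes were in the table. The 14 tubular injury genes all rose, Havcr1 from 3.47 CPM ± 1.39 to 3467 ± 586 after IRI. The part of these shifts in the falls of the 5 genes was not tested.

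**Figure D5:**
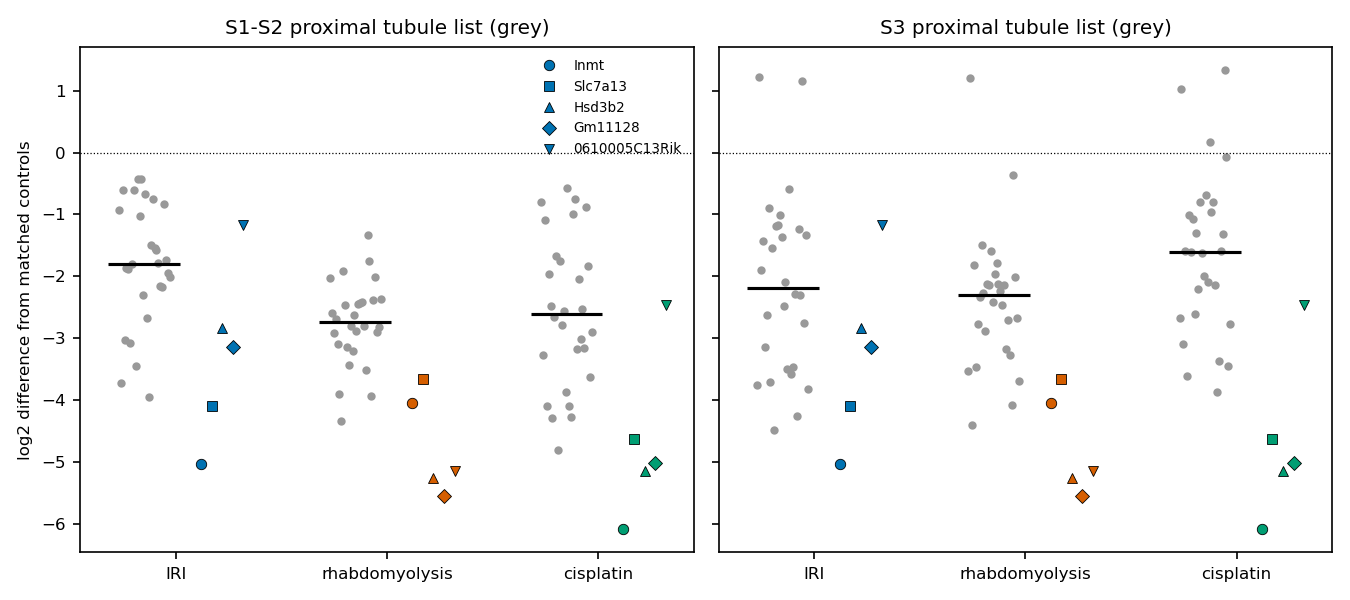
Log2 difference from the matched controls for the genes of the S1 and S2 list and of the S3 list (grey points, 28 genes each, horizontal bars at the median) and for the 5 genes (coloured symbols), by injury. Inmt lies below all grey points after IRI and cisplatin, and 0610005C13Rik lies above the median after IRI and below all grey points after rhabdomyolysis. The 5 genes were chosen for their falls, so their places are a description.

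Other lists gave the setting for the genes' functions. Of 15 genes of tryptophan and amine metabolism, 13 fell and 2 rose after IRI and after rhabdomyolysis, and 12 fell and 2 rose after cisplatin, with medians of -1.36, -2.80 and -1.69. Dao, the D-amino acid oxidase, fell to 29.1% ± 4.33, 12.6% ± 1.56 and 17.7% ± 7.75, whereas Aldh2, an aldehyde dehydrogenase, fell to 54.1% ± 2.81 and 45.7% ± 4.04 but held 105% ± 7.25 after cisplatin (limma adjusted p 0.568). Under quantile normalization Aldh2 was called higher after cisplatin, with a log2 difference of 0.66 (limma adjusted p 1.65e-06). Of 14 transcription factors of the proximal tubule, 7 fell and 2 rose after IRI, 11 and 3 after rhabdomyolysis, and 11 and 2 after cisplatin, with medians of -0.35, -1.52 and -0.97. Hnf4a, a nuclear receptor that maintains proximal tubule identity, fell to 10.0% ± 2.50 after rhabdomyolysis and 29.1% ± 8.69 after cisplatin. Its fall to 71.4% ± 3.85 after IRI (limma adjusted p 0.0192) turned to a log2 difference of 0.34 under quantile normalization. That fall was also not called without control 3 or under 75th percentile scaling, with limma adjusted p 0.0555 in each. The order of Hnf4a, lowest after rhabdomyolysis and highest after IRI, was that of the means of Hsd3b2, Gm11128 and 0610005C13Rik and not that of Inmt and Slc7a13. Of 12 other amino acid transporters, 7 fell and 4 rose after IRI and after cisplatin, and 10 fell and 2 rose after rhabdomyolysis, with medians of -0.55, -0.81 and -2.19 in that order. Of 6 genes known to be higher in male mouse kidney, 4 fell after IRI and 6 in both rhabdomyolysis and cisplatin, with medians of -1.60, -2.85 and -2.48. Kap, the androgen-regulated kidney protein, fell to 28.3% ± 7.44, 26.3% ± 2.36 and 16.0% ± 4.21. Of the sex-linked genes listed, 0 were in the table.

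Among 4163 other genes with at least 5 CPM in the controls, the 5 genes themselves left out, the closest patterns over the 12 injured libraries were ranked by the root mean square difference in log2 change from the matched controls, as a description with no test. All the libraries share their controls within an identifier range. For 0610005C13Rik the closest gene was Hykk, the hydroxylysine kinase, at 0.375 log2 units, which fell to 30.8% ± 5.46 after IRI, 2.44% ± 0.351 after rhabdomyolysis and 20.1% ± 8.01 after cisplatin, and the next were Hsd3b3 at 0.595 and Keg1 at 0.608. For Slc7a13 the closest was Slc22a22, a prostaglandin transporter, at 0.408, with 5.22% ± 1.32, 10.3% ± 2.07 and 5.08% ± 2.70 left, followed by Miox at 0.544 and Car14, a carbonic anhydrase, at 0.646. Hsd3b2 and Gm11128 shared the closest 2 of these genes, Acmsd, a decarboxylase of the tryptophan pathway, at 0.640 and 0.873, and Gatm, the first enzyme of creatine synthesis, at 0.828 and 1.02. Acmsd fell to 19.2% ± 7.80, 3.53% ± 0.616 and 3.99% ± 1.85, and Gatm to 12% ± 2.49, 4.84% ± 0.724 and 5.18% ± 1.65. Next came Gm4477 at 1.02 for Hsd3b2 and Sectm1b at 1.04 for Gm11128. For Inmt the closest of these genes, the lectin gene Clec2h, lay farther off at 1.11, Egf, a gene of the distal tubule, at 1.30 and Miox at 1.34. Among the 5 genes the nearest pair was Hsd3b2 and Gm11128 at 0.654, nearer to Gm11128 than Acmsd, Inmt and Slc7a13 lay at 1.10, and the farthest was Inmt and 0610005C13Rik at 3.17.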

How the data were processed

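Each library's RNA-seq values were taken from the deposited table of 6025 genes, whose CPM values the authors computed, per the values themselves; FastQC, Bowtie2 2.1.0, RSEM 1.2.15, edgeR and the builds GRCm38 and mm10 stand in the submitters' processing notes without their roles. Every value was a whole multiple of what 1 read is worth in its library (100% within 0.01 reads), so reads were recovered. Percent left is the mean CPM over that of the matched controls. The 5672 genes that averaged 1 CPM or more over the libraries were fitted with limma 3.58.1 in R 4.3.3 on log2(CPM + 1), in 1 model with 5 cells (both control ranges and 3 injuries) and a mean-variance trend, with Benjamini-Hochberg adjustment over all genes and a threshold of 0.05; standard errors and adjusted p-values of single genes come from this fit. edgeR 4.0.16 on the recovered reads (5914 genes), other pseudocounts, filters and scalings, and single libraries left out were alternatives. A test of the fit on simulated data was run, and its outcome is not given here. No 2 libraries had identical values. The genes and lists were chosen with earlier results of these data known. Named genes are the 5, their relatives and partners, up to 4 of the most abundant genes per list, the 3 closest patterns and annotated neighbours; the lists leave out the 5 genes. Depth limits low values: where a library holds few reads, the number is given. The labels call the mice separate samples and name no shared litter. Sequences came from GENCODE M21 and RefSeq on GRCm38.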

Additional observations from a re-analysis of the deposited data

Results flagged for a closer look

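One library stood apart from its group. Slc7a13 in control 4 lay below the other 7 controls by 0.605 of the group's range on the log2 scale, past Dixon's 95% critical value for 8 libraries, although not on the CPM scale. Of 20 groups of the 5 genes examined on both scales this was the only such value, and chance gives about 1 in 20. Control 4 is one of the controls matched to IRI, and without it 5.06% of Slc7a13 was left there.

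Of 40 comparisons between the IRI effect and that of another injury among relatives, partners and neighbours, 15 passed the limma threshold, 9 of 20 against rhabdomyolysis, where 52% of all genes tested passed, and 6 of 20 against cisplatin, where 30.3% did. The fall in rhabdomyolysis was larger than in IRI by 2.76 log2 units for Hsd3b3 (SE 0.36, adjusted p 3.17e-06), by 1.63 for Tpmt (adjusted p 8.55e-07), by 1.18 for Slc7a9 (adjusted p 0.000753), by 1.18 for Slc7a8 (adjusted p 3.06e-06), by 0.92 for Slc3a1 (adjusted p 0.00166) and by 0.61 for Mat2a (adjusted p 0.00464). Among the N-acetyltransferase 8 genes it was larger by 1.43 for Cml1 (adjusted p 0.0024), by 1.39 for Nat8 (adjusted p 0.0145) and by 1.10 for Gm4477 (adjusted p 0.0208, and 0.0567 without IRI 3). The fall in cisplatin was larger than in IRI by 0.98 for Slc7a7 (adjusted p 0.00816), by 1.73 for Gm4477 (adjusted p 0.00163), by 1.69 for Cml5 (adjusted p 0.0116), by 1.46 for Cml3 (adjusted p 0.00337) and by 1.18 for Cml1 (adjusted p 0.0158). For Slc7a12 the IRI effect minus the cisplatin effect was -2.68 (SE 0.43, adjusted p 6.57e-05), with all 4 IRI libraries and 1 of 4 cisplatin libraries below all controls. IRI and the other injuries also differ in identifier range, which the matched controls share.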

How the results depend on the processing

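Of 201 alternatives to the 15 shares left by the 5 genes, 193 moved the value by less than 1 SD between the injured libraries. Leaving out 1 of an injury's 4 libraries cannot move its mean by 1 SD, so those alternatives could not count as moved. The 8 that moved were all other scalings or sums over relatives. The order of the injuries was the same for all 5 genes under each other scaling and average. With each of the 20 libraries left out in turn, it changed for Hsd3b2 in 3 cases, between rhabdomyolysis and cisplatin, and for the other 4 genes in 0. Quantile normalization raised Inmt to 4.03% in IRI and 8.15% in rhabdomyolysis, Slc7a13 in rhabdomyolysis to 10.6% and 0610005C13Rik in IRI to 54.2%. Scaling to the 75th percentile gave 6.79% for Inmt and 2.60% for 0610005C13Rik in rhabdomyolysis. Sums over relatives, chosen after seeing the data, gave 3.35% for Gm11128 with Gm4477 and Cml3 in rhabdomyolysis and 12% for Hsd3b2 with Hsd3b3 in cisplatin. Leaving out single libraries moved no share by more than 1.39 times. The other scalings shifted the median of all genes by 0.10 in IRI and 0.13 in rhabdomyolysis (75th percentile) and by -0.17 in rhabdomyolysis and -0.27 in cisplatin (quantile). Of 2313 alternatives to counts of genes called, 2297 stayed within 1.5 times. In IRI, steroid genes called higher came to 2 with edgeR or all 8 controls and 1 to 2 without single libraries, methyl transfer genes called higher to 0 with a minimum mean of 5 CPM or quantile normalization and 0 to 1 without single libraries, genes higher in male kidney called higher to 1 under quantile normalization, and endothelial and podocyte genes called higher to 3 to 6 without single libraries. With a minimum mean of 5 CPM, hepatocyte genes called lower came to 1 in each injury and methyl transfer genes called higher to 0 in rhabdomyolysis and cisplatin, the latter also under quantile normalization. With no minimum mean, leukocyte genes called lower came to 2 in rhabdomyolysis and cisplatin.

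The difference between control ranges changed sign for 0610005C13Rik under quantile normalization (-0.0097) and, without single controls, spanned -0.061 to 0.10 for it, -0.15 to 0.038 for Hsd3b2 and -0.26 to 0.085 for Slc7a13, with no call. Of the other genes named, quantile normalization turned Mat2a (0.048) and Hnf4a (0.34) in IRI and Napsa in cisplatin (0.16). It also called Aldh2 higher in cisplatin (0.66), where all 8 controls turned it (-0.052). Scaling to the 75th percentile left Hnf4a in IRI at -0.35 and not called. Slc7a12 in cisplatin spanned -0.28 to 0.16 without single libraries. The labels state no pairing by replicate number, and none was seen in the values. Same-numbered libraries correlated at -0.11 to 0.18 between IRI and controls and at -0.21 to 0.32 between rhabdomyolysis and cisplatin. In each case 1 of 4 correlated best with its own number, which cannot exclude a pairing. With the replicate number as a block, limma called 2197 genes lower and 2214 higher in IRI, against 2274 and 2304, and 1713 lower and 1121 higher in rhabdomyolysis than in cisplatin, against 1853 and 1215. The excess of lower calls in rhabdomyolysis against cisplatin depended on scaling. Limma called 1585 lower and 1694 higher there under quantile normalization, and 1624 and 1474 under 75th percentile scaling. Where few reads remain, as for Gm11128 in cisplatin 2 (8 reads), counting error is large.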

Other observations

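Measured neighbours on the chromosome are given for Inmt, 0610005C13Rik and Gm11128. Fam188b, next to Inmt, fell to 38.5% ± 7.77 of the matched control mean in IRI, 32.5% ± 3.08 in rhabdomyolysis and 33.2% ± 6.40 in cisplatin, where Inmt had 3.03%, 5.97% and 1.43% left. Hsd17b14, a hydroxysteroid dehydrogenase near 0610005C13Rik, was scarce at 3.38 CPM ± 0.804 and 4.11 ± 1.18 in the control ranges and fell to 11.7% ± 6.13, 8.24% ± 5.68 and 32.2% ± 7.95, with 2 to 6 reads per library in IRI and rhabdomyolysis. In IRI this was a smaller share than the 43.8% of 0610005C13Rik. Alms1-ps2, near Gm11128, was too scarce to be tested, with 5 to 11 reads per library in controls, 0 to 4 in IRI, 0 to 1 in rhabdomyolysis and 0 to 2 in cisplatin.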
